A study of Mus musculus with 22 samples.

Results

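The response of pancreatic beta-cells to a meal was measured in control mice, by comparing sorted beta-cells from 5 refed mice with sorted beta-cells from 5 fasted mice. These 10 RNA-seq libraries were chosen by their labels from the 22 of the series, and the response was followed across all 14064 genes with enough counts to test, of 52327 in the table. The fasted mice had been without food for 8 hours, and the refed mice had been fasted for 8 hours and then fed for 2 hours. All were males of 3 months on a mixed background and carried the same transgenes as the ablated mice, GluDTR+, SstDTR htz and PpyDTR htz, which place the diphtheria toxin receptor in glucagon, somatostatin and pancreatic polypeptide cells. The control mice carry the label Control for treatment, and whether they received an injection is not given in the sources used here. The other 12 libraries come from mice treated with diphtheria toxin (DT), 6 fasted and 6 refed, and samples were taken one month after ablation. They serve here as a comparison. Each library is 1 mouse, so the tests below measure the spread between mice. Fasted control mice are numbered 1 to 5 and refed control mice 12, 18, 19, 21 and 22, so feeding state and anything that ran with the numbering cannot be told apart.

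Beta-cells sense blood glucose by metabolising it. The ATP made from glucose closes potassium channels, calcium enters, and granules of insulin are released, while gut hormones raise cAMP and strengthen release. In the hours after a meal the cell also has to make new proinsulin, which is translated at the endoplasmic reticulum (ER), folded there by chaperones and carried by coated vesicles to the Golgi. Fasting is known in other tissues for FoxO, PPAR and ATF4 programmes that raise fatty acid oxidation, autophagy and amino acid supply, and insulin and nutrients counter them.

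The 10 control libraries held 16803188 to 22354107 counts each. Levels are given as CPM, a gene's counts on a per-million scale after the TMM method has corrected for differences in composition between libraries, and CPM is not divided by gene length. Insulin transcripts dominated every library, with Ins2 at 297537 to 428327 CPM and Iapp at 44265 to 58688 CPM, and Pdx1 (108 to 146 CPM) and Ucn3 (308 to 601 CPM) were present in all 10. Mafa (16.96 to 416 CPM) and Nkx6-1 (35.8 to 191 CPM) were also present in all 10 and varied widely, and both belong to the co-varying genes described next. The libraries are thus beta-cell libraries by their markers, but RNA from sorted beta-cells does not measure whether the neighbouring islet cells were intact. One feature set some libraries apart. A group of 483 genes that rose and fell together between libraries, found after the data were seen, averaged 2.68 to 3.40 log2 CPM in fasted mice 4 and 5 and refed mouse 21 and 4.32 to 5.08 in the other 7. Their transcripts begin with a median of 77% G and C over the first 200 bases, against 66% in the other genes examined. In refeeding 5 of the 483 were called higher and 1 lower (1.24%), and none is among the 24 genes with the largest changes by the rule given below. For many of the gene lists the counts in the 7 control libraries left without mice 4, 5 and 21 are given beside the main ones. RNA of exocrine acinar cells was present in every library. The summed level of 27 acinar markers ran from 207 to 17195 CPM in the fasted libraries and from 1834 to 27776 in the refed, and 26 of the 27 had a fold change above 0, with 1 of them called (adjusted p = 0.571 for the sum, two-sided exact permutation test, adjusted over 8 marker and RNA sums). Immune markers summed to 52.8 to 261 CPM when fasted and 26.4 to 67.6 when refed (adjusted exact permutation p = 0.254). Duct markers summed to 849 to 942 CPM when fasted and 742 to 853 when refed (adjusted exact permutation p = 0.254). Of 12 duct markers 2 were called lower (16.7%, against 12.3% of all genes).

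**Figure D1:**
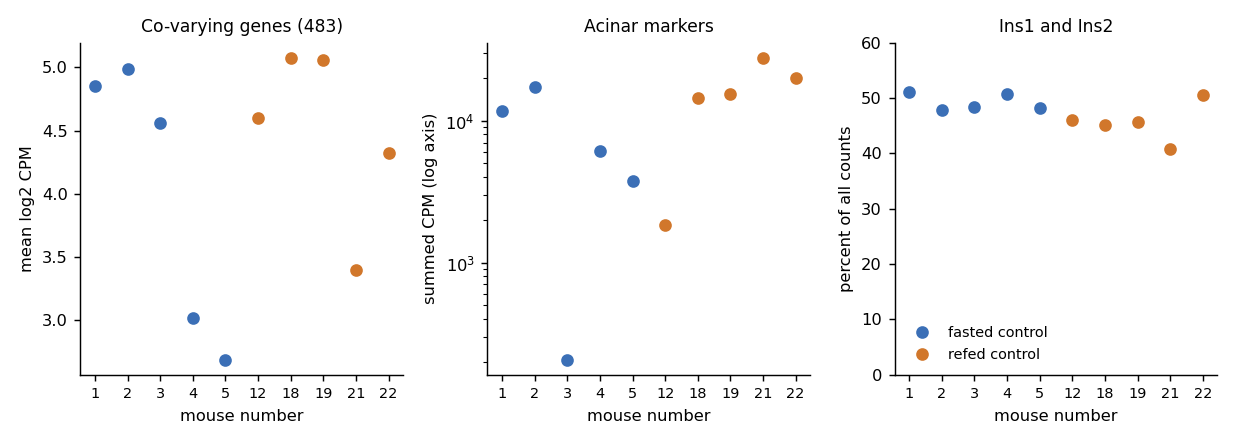
Features of the 10 control libraries, by mouse number: the mean log2 CPM of the 483 co-varying genes, the summed CPM of the acinar markers on a log axis, and the share of all counts taken by Ins1 and Ins2 in percent. Points are single libraries, blue for fasted and orange for refed. Mice 4, 5 and 21 sit low in the first panel, and both groups span a wide range in the second.

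Refeeding changed the level of many genes, in both directions. At a Benjamini-Hochberg adjusted p under 0.05 in edgeR's quasi-likelihood test, 1537 genes were higher in the refed libraries (10.9%) and 1735 were lower (12.3%), together 3272 of 14064 (23.3%). The changes were mostly moderate, with a median size of 0.78 on the log2 scale among called genes. The larger changes leaned downward, since 737 genes fell at least 2-fold and 340 rose at least 2-fold, and 208 fell at least 4-fold against 62 that rose that much. All 5 refed libraries lay above all 5 fasted ones for 1462 genes (10.4% of those tested) and below them for 1566 (11.1%). Called genes that also failed to overlap numbered 1212 upward and 1281 downward. The median fold change over all genes tested was -0.04, so the scaling left the bulk of genes near 0. Leaving out any 1 of the 10 libraries kept 1054 of the higher and 1090 of the lower genes called in every case. In the 7 libraries left without mice 4, 5 and 21, the calls were 869 higher and 923 lower of 14622 genes tested. List counts given below for these 7 libraries are to be read beside those smaller totals, and not beside 10.9% and 12.3%. The 12 largest changes in each direction were taken among called genes averaging at least 1 log2 CPM that stayed called in every leave-one-out fit. Unnamed gene models were left out, and genes outside these limits may have changed more. Genes named below beyond the 12 largest changes in each direction and the 4 members with the smallest p of each gene list were chosen after their values were seen.

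**Figure D2:**
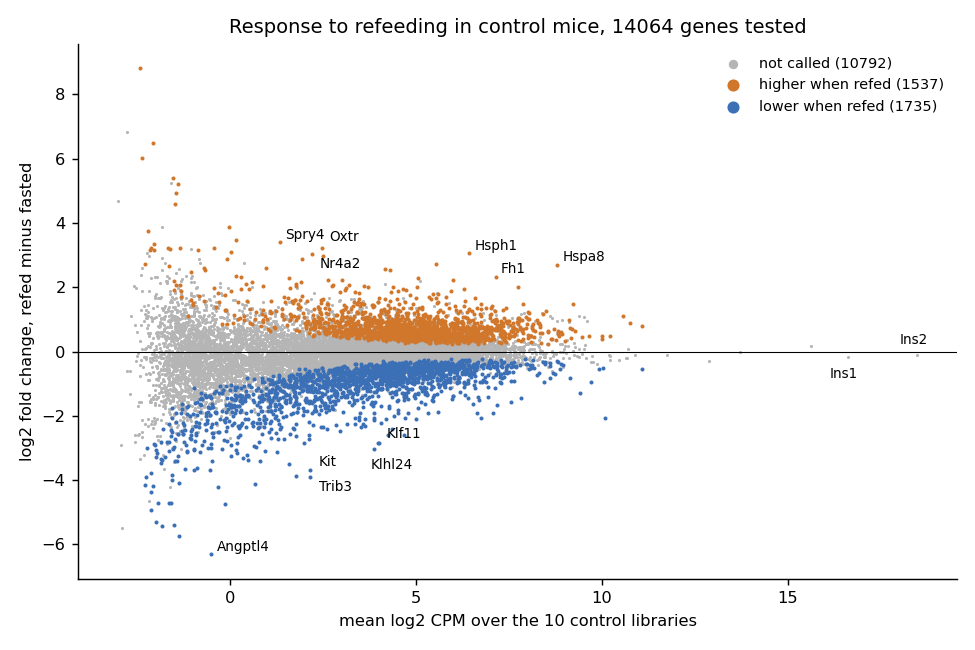
Log2 fold change (refed minus fasted) of each of 14064 genes against its mean log2 CPM over the 10 control libraries. Orange points are the 1537 genes called higher, blue points the 1735 called lower and grey points the rest. Spry4 and Hsph1 lie near the upper edge of the cloud, Trib3 and Angptl4 near the lower edge, and Ins1 and Ins2 near 0 at the far right.

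The insulin genes themselves did not pass the test. The log2 fold change (± SE) was -0.16 ± 0.25 for Ins1 and -0.11 ± 0.22 for Ins2, with adjusted p of 0.704 and 0.776. The insulin share of counts, Ins1 and Ins2 together, was 51.1, 47.7, 48.3, 50.8 and 48.2% in fasted mice 1 to 5 and 46.0, 45.0, 45.6, 40.8 and 50.5% in refed mice 12, 18, 19, 21 and 22. The refed libraries were lower in all but mouse 22, and the mean share went from 49.2 ± 1.59% to 45.6 ± 3.46% (SD, n = 5 each; exact permutation p = 0.0635, two-sided, the smallest possible being 0.00794). With single libraries left out, the difference ran from -4.87 percentage points without refed mouse 22 to -2.44 without refed mouse 21, the refed libraries with the highest and the lowest share. Ins1 and Ins2 are close copies, so reads may be split between them unevenly. In sorted cells a smaller share of a transcript and a larger share of others cannot be told apart, nor can fewer cells of a type and less RNA per cell. Gcg, Sst and Ppy, the hormones of the neighbouring cells, did not pass the test either (adjusted p 0.763, 0.548 and 0.295), and their libraries overlapped.

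The largest rises by this rule were spread over signalling feedback, chaperone and metabolic genes. The log2 fold changes of the 12 largest ran from 2.27 to 3.40, and the groups did not overlap for 11 of them, the exception being Sik1. Hsph1, a large cytosolic co-chaperone of the Hsp70 family (chr5:149616843-149636498, GRCm38), was at 20.8, 30.5, 31.98, 42.8 and 31.7 CPM in fasted mice 1 to 5 and at 343, 412, 198, 223 and 132 CPM in refed mice 12, 18, 19, 21 and 22. Each refed library was thus far above the highest fasted one, and the log2 fold change was 3.05 ± 0.31 (adjusted p = 1.99e-06, edgeR). Fh1, fumarate hydratase of the citric acid cycle (chr1:175601378-175625635), was the tightest of the large rises, from 69.5, 64.1, 67.95, 57.5 and 56.8 CPM to 328, 322, 304, 289.6 and 336 CPM. The spread in each group was small beside the step between them (log2 2.32 ± 0.16, adjusted p = 1.87e-08). Oxtr, the oxytocin receptor (chr6:112473683-112491035), went from 1.11, 0.698, 4.88, 2.13 and 1.5 CPM to 25.2, 22.9, 22.4, 5.75 and 19.9 CPM. Refed mouse 21 was well below its group and still above every fasted library (log2 3.21 ± 0.77, adjusted p = 0.00466).

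Spry4, an inhibitor of receptor tyrosine kinase signalling, had the highest fitted fold change of the 12, from a very low base. Its levels were 0.0482, 2.68, 2.53, 0.0474 and 0.25 CPM when fasted and 9.17, 13.2, 9.96, 10.7 and 15.1 CPM when refed (log2 3.40 ± 0.77, adjusted p = 0.00312). In all, 111 counts in 5 fasted libraries stand against 1182 in 5 refed ones, with 1 count each in fasted mice 1 and 4, so the size of this fold is loosely known. Dapl1 rose from 18.9 ± 3.18 to 124 ± 45.3 CPM (mean ± SD, n = 5), Ppa1, a cytosolic inorganic pyrophosphatase, from 15.7 ± 6.66 to 75.9 ± 14.3 CPM, and Meltf, melanotransferrin, from 1.52 ± 0.827 to 11.3 ± 5.12 CPM. Rap2a, a small Ras-family GTPase, rose least evenly, from 1.54, 2.15, 2.26, 0.852 and 0.791 CPM to 2.58, 14.04, 12.3, 3.72 and 4.53 CPM. Its refed values were high in mice 18 and 19 only, and in the 7 libraries without mice 4, 5 and 21 its adjusted p was 0.0521 in edgeR.

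Among the 12 largest falls no fasted and refed libraries overlapped. Trib3, a pseudokinase that restrains Akt and is a target of ATF4 (chr2:152337425-152344060), was at 9.88, 3.55, 13.8, 41.8 and 27.6 CPM when fasted and 1.06, 1.45, 0.926, 1.18 and 1.88 CPM when refed. The fasted libraries varied widely, with mice 4 and 5 highest, while the refed ones were all low (log2 -3.90 ± 0.66, adjusted p = 0.000237). Klhl24, of the kelch-like family of ubiquitin ligase adaptors (chr16:20097553-20129226), was at 44.6, 20.3, 47.4, 45.5 and 56.2 CPM and then 5.33, 4.998, 4.72, 6.504 and 4.53 CPM. Every refed library was far below fasted mouse 2, the lowest of its group (log2 -3.03 ± 0.25, adjusted p = 8.64e-08). Klf11, a Krüppel-like transcription factor, moved in the same direction, with 43.6, 45.2, 42.8, 44.6 and 36.2 CPM when fasted and 6.297, 4.13, 6.34, 7.68 and 4.86 CPM when refed (log2 -2.85 ± 0.40). Kit, the stem cell factor receptor (chr5:75574987-75656722), went from 12.9, 5.59, 26.9, 11.7 and 30.2 to 1.31, 1.18, 1.81, 1.93 and 0.453 CPM. Sv2b, a synaptic vesicle glycoprotein, fell from 13.6 ± 3.03 to 0.909 ± 0.542 CPM, Rgs12, a regulator of G-protein signalling, from 10.03 ± 4.52 to 0.884 ± 0.2902 CPM, and Dusp26, a phosphatase, from 49.02 ± 16.6 to 6.83 ± 4.64 CPM. Gpr146, an orphan receptor, Radil, Fam221a and Lrrc29 fell by 2.701, 2.86, 2.74 and 2.72 on the log2 scale. Rptoros, whose name places it opposite Rptor, fell by 3.11, and since the strand of counting is not given its reads cannot be told apart from those of Rptor.

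**Figure D3:**
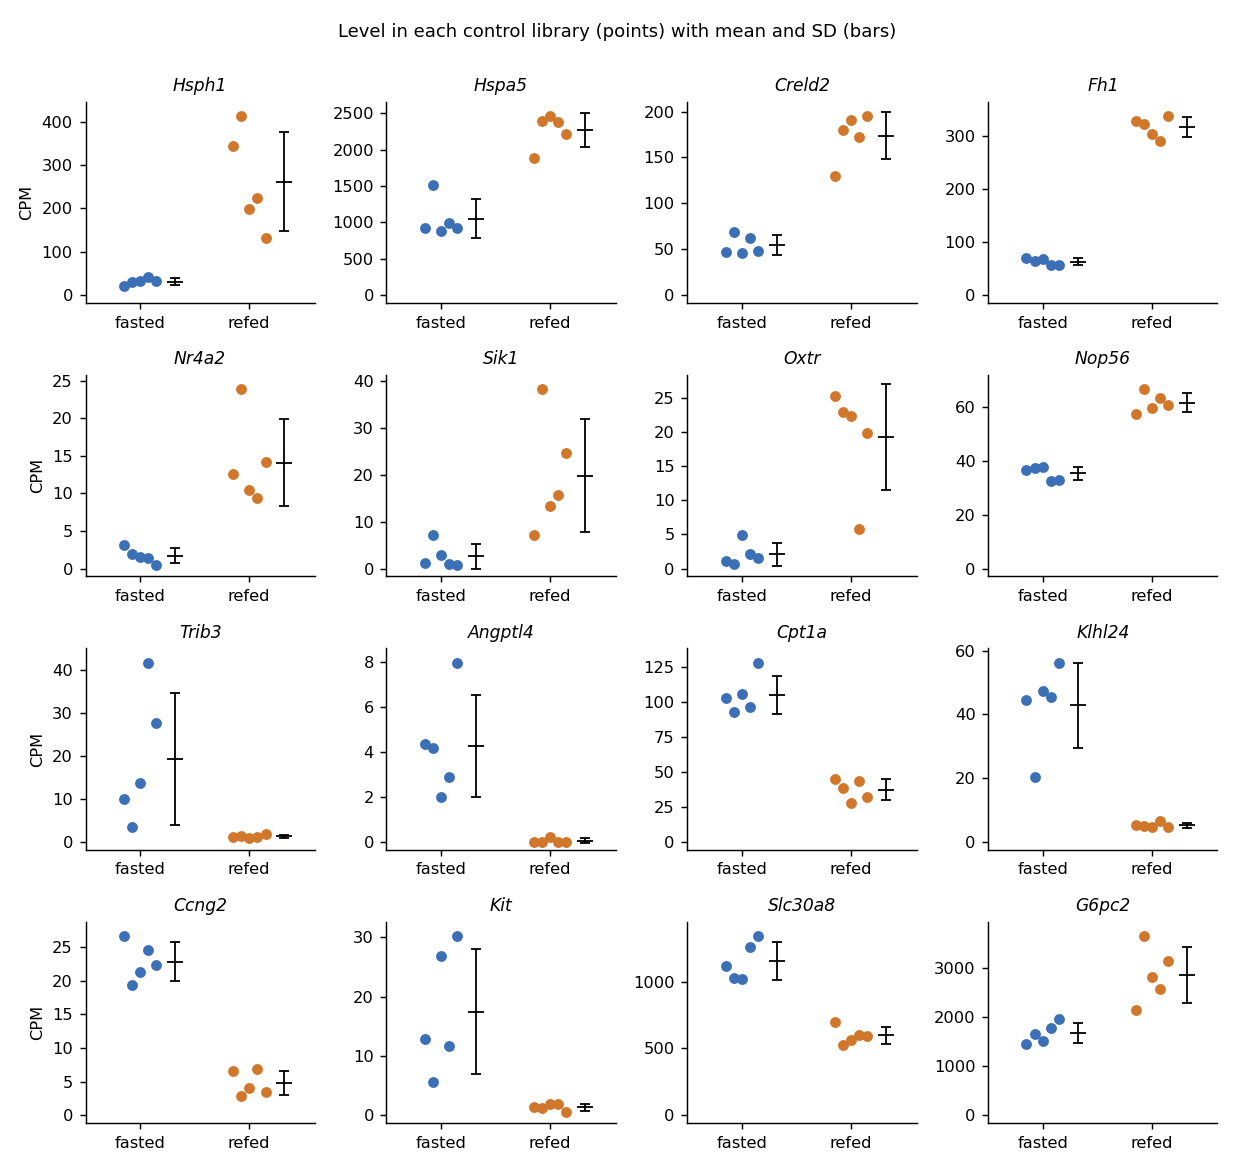
CPM in each of the 10 control libraries for 16 genes described in the text, one panel each on its own linear axis. Points are libraries in order of mouse number, black bars the mean and SD of 5 libraries. Only Sik1 has a fasted library level with a refed one, at 7.10 and 7.06 CPM.

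Genes that follow cAMP and receptor signalling split between rises and falls. Of 30 CREB and cAMP feedback genes tested 6 rose and 3 fell, of 24 immediate-early genes 2 rose and 6 fell, and of 15 ERK feedback genes 3 rose and 2 fell, against 10.9% higher and 12.3% lower among all genes. Nr4a2, an orphan nuclear receptor induced by cAMP and calcium (chr2:57106830-57124003), rose from 3.13, 1.98, 1.51, 1.42 and 0.4999 CPM to 12.6, 23.9, 10.4, 9.43 and 14.2 CPM (log2 3.05 ± 0.51, adjusted p = 0.000219). Sik1, a kinase that feeds back on CREB coactivators (chr17:31844248-31855804), was at 1.16, 7.101, 2.97, 0.8997 and 0.7499 CPM and then 7.06, 38.2, 13.4, 15.7 and 24.7 CPM, with fasted mouse 2 and refed mouse 12 level. Crem, whose short product represses CREB targets, rose from 12.2, 12.3, 13.04, 15.1 and 11.96 to 36.5, 66.9, 50.4, 43.6 and 52.2 CPM without overlap. Of the phosphodiesterases, which break down cyclic nucleotides, 2 in the list rose. Pde10a went from 8.35 ± 3.32 to 48.4 ± 11.6 CPM and Pde4b from 25.4 ± 3.01 to 50.1 ± 10.3 CPM, and Prkar1a, the inhibitory subunit of protein kinase A, from 492 ± 40.6 to 772 ± 102 CPM. The sixth gene, Ppargc1a, a coactivator of mitochondrial genes named after its values were seen, rose by 1.23 ± 0.31. The 3 that fell were Rgs2, Prkacb and Rapgef4, the latter coding the cAMP sensor Epac2, at -1.91, -0.68 and -0.40.

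The immediate-early genes moved in both directions. Besides Nr4a2, Fosl2 rose, from 1.74, 1.57, 2.79, 2.08 and 2.71 CPM to 4.902, 14.5, 4.68, 3.68 and 8.42 CPM. Egr1, Junb and Klf10, early transcription factors, were lower when refed, at -1.25, -1.001 and -0.96 on the log2 scale, as were Fosb (-0.93), Arc (-1.65) and Npas4 (-2.34). Klf10 went from 42.5, 36.5, 33.2, 45.2 and 48.9 to 26.2, 24.9, 19.9, 18.5 and 16.6 CPM, each refed library below each fasted one. In the 7 libraries without mice 4, 5 and 21, 1 member was called lower and 2 were called higher. Of the ERK feedback genes Spry4, Etv5 (from 14.1 ± 5.096 to 52.9 ± 10.5 CPM) and Dusp6 (1.33 ± 0.45) rose, while Hbegf, a ligand of the EGF receptor, and Egr1 fell. The 7 libraries gave 2 higher and 1 lower in this list. Hbegf was at 18.4, 18.6, 13.04, 14.6 and 13.5 CPM fasted and 3.46, 6.45, 10.8, 6.27 and 5.12 CPM refed. Among 28 hormone and neurotransmitter receptors 5 rose (17.9%, against 10.9% of all genes) and 2 fell (7.14%, against 12.3%). The 5 were Oxtr, Gabbr2, a subunit of the GABA-B receptor (from 6.23 ± 1.48 to 19.5 ± 3.29 CPM), Gucy2c, the guanylin receptor (1.02 ± 0.22), Adora2a (1.29 ± 0.44) and Prlr, the prolactin receptor (0.70 ± 0.17). Adora1, an adenosine receptor, and Gprc6a fell by 0.64 and 1.42, and the 7 libraries gave 4 higher and 1 lower.

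Genes of the machinery that brings secretory proteins into and out of the ER rose. Of 50 tested genes for ER translocation and vesicle coats 34 rose (68%, against 10.9% of all genes) and none fell (none lower also at an unadjusted p under 0.05 in edgeR or by DESeq2). A fold change above 0 was seen in 49, and the list median log2 fold change was 0.61, against -0.04 over all genes. Sec23b, a subunit of the COPII coat that leaves the ER, rose from 123, 233, 100.3, 137 and 121 CPM to 326, 412, 429, 422 and 410.3 CPM. Fasted mouse 2 was the highest of its group and still below the lowest refed library (log2 1.49 ± 0.23, adjusted p = 0.000111). Ssr2, of the translocon-associated complex, went from 69.3, 136, 76.1, 89.8 and 85.9 to 190.5, 217, 256, 221 and 216 CPM, and Kdelr2, which retrieves ER residents from the Golgi, from 71.3, 125, 74.9, 90.5 and 74.3 to 165, 182, 218, 194 and 203 CPM. Sec11a, a signal peptidase subunit, rose from 52.5 ± 8.72 to 99.4 ± 5.29 CPM. The signal recognition particle (Srp9, Srp72), its receptor (Srprb), the translocon (Sec61a1, Sec61b, Sec61g), the oligosaccharyl transferase (Rpn1, Stt3a, Dad1) and the COPI coat (Copa, Copb1, Copb2, Cope) each had called members, between 0.48 for Copa and 1.09 for Sec61g. The acinar cell is also rich in these transcripts, and fasted mouse 2, the highest fasted library for Sec23b, Ssr2 and Kdelr2, also had the most acinar marker RNA of its group (17195 CPM). Refed mouse 12 had the least acinar marker RNA of its group (1834 CPM). Its levels of the same 3 genes were the lowest of the refed libraries and above all 5 fasted ones. The 3 genes were named by their small p in this same contrast, so a gap between the groups follows from the choice. With the acinar level as a covariate 33 of the 50 rose and the median was 0.59. These values are descriptions, and the part of acinar RNA in the result was not tested. In the 7 libraries without mice 4, 5 and 21, 18 rose, with a median of 0.54.

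ER chaperones and genes of the unfolded protein response followed. Of 37 tested 20 rose (54.1%, against 10.9% of all genes) and none fell (1 lower at an unadjusted p under 0.05, none by DESeq2). The median was 0.63, and 18 rose with the acinar covariate. Creld2, an ER stress gene of the disulfide isomerase network, was at 46.6, 68.97, 45.95, 62.4 and 48.6 CPM fasted and 130.3, 179.8, 191, 173 and 195 CPM refed (log2 1.67 ± 0.23, adjusted p = 2.63e-05). Dnajb9, a co-chaperone that regulates Ire1, went from 84.02, 138, 80.1, 120 and 99.3 to 205, 282, 288, 256 and 236 CPM and Pdia6, a disulfide isomerase, from 394 ± 65.05 to 781 ± 76.2 CPM. Hspa5, the main ER chaperone BiP, was already abundant at 928, 1517, 888, 998 and 926 CPM and reached 1879, 2399, 2459, 2376 and 2217 CPM. Manf, Sdf2l1, Dnajb11, Pdia4 and Hyou1 rose by 1.37, 1.18, 1.17, 1.07 and 1.02. Ppib, an ER cyclophilin, rose by 1.003 ± 0.15. Bhlha15, a transcription factor that scales secretory capacity and is listed here as an acinar marker, was the 1 acinar marker called, from 57.1, 49.2, 43.5, 68.6 and 49.3 CPM to 106, 129.9, 109, 122 and 99.2 CPM. The part of acinar RNA in its rise was not tested.

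Promoters of these ER genes are shown because several share a spelled motif. RefSeq promoters (GRCm38.p6, 250 bases before to 50 after a start) were matched by symbol for 10502 of the 14064 tested genes, and each motif was searched on both strands. The ER stress element, CCAAT and CCACG with 9 bases between them, stood in the promoters of 17 of the 10502 (0.162%), of which 8 belong to called higher genes. Of the 17 ER chaperone genes that rose and have a promoter here 6 carried it, and of the 15 that were not called 4 did (Canx, Syvn1, Derl3, Ero1b). The stretches below carry the element in capitals, all 5′ to 3′ on the gene's strand, at chr2:34772005-34772063 (plus), chr10:86705513-86705676 (minus, with 2 elements), chr8:84847055-84847113 (minus), chr12:17266471-17266529 (plus), chr14:118937807-118937865 (plus) and chr15:88819500-88819558 (plus).
Hspa5: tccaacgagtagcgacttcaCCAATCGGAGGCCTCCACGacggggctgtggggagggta
Hsp90b1: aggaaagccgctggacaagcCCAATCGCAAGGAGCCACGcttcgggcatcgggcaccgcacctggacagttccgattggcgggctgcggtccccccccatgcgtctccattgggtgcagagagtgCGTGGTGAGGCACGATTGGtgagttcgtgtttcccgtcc
Calr: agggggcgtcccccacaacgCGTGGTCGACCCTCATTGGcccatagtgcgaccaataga
Pdia6: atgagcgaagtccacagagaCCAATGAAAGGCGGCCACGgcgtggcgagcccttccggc
Dnajc3: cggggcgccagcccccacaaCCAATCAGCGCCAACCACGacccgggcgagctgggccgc
Creld2: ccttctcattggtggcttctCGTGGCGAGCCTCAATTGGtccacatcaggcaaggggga
These 6 genes rose by 1.11, 0.69, 0.71, 0.99, 0.76 and 1.67 in that order. In the translocation and coat list the shorter unfolded protein response element TGACGTGG stood in 4 of 29 called genes and in 1 of 10 not called, against 1.06% of tested genes. It is shown in capitals for Sec24d (chr3:123267450-123267495, plus), Copb1 (chr7:114254681-114254728, minus) and Kdelr3 (chr15:79516358-79516405, plus), which rose by 0.69, 0.60 and 1.16.
Sec24d: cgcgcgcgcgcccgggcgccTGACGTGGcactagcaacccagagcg
Copb1: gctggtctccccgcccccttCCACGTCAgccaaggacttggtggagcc
Kdelr3: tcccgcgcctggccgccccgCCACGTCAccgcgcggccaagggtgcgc
A match describes these letters only and shows neither binding nor control.

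Chaperones of the cytosol and mitochondria had the largest median rise of the lists. Of 28 tested 19 rose (67.9%, against 10.9% of all genes) and none fell (none lower at an unadjusted p under 0.05 in edgeR or by DESeq2), with a median of 1.06. Besides Hsph1, the constitutive Hsp70 Hspa8 (chr9:40801276-40805202) went from 144, 229, 158, 201 and 166 CPM to 898, 1907, 998, 1255 and 788 CPM (log2 2.702 ± 0.27). Hsp90aa1, the inducible Hsp90, was at 109.5, 113, 103, 109.5 and 92.98 CPM and then 442, 498, 429, 382 and 388 CPM, a narrow spread on both sides. Hspd1, the mitochondrial chaperonin, went from 70.3, 89.2, 78.8, 83.4 and 81.8 to 204, 228, 219, 200.3 and 176 CPM (log2 1.35 ± 0.12, adjusted p = 2.31e-07), and its partner Hspe1 rose by 1.79 ± 0.20. Co-chaperones of Hsp90 rose too, with Chordc1 at 2.02 ± 0.23, Stip1 at 1.94 ± 0.22 and Ahsa1 at 1.53 ± 0.17, and 3 chaperonin subunits, Cct2, Cct3 and Tcp1, by 0.76, 1.47 and 0.995. Hspa8, Hspd1 and Hsp90aa1 have close copies in the genome, so their counts are uncertain to that extent. The count was also 19 without mice 4, 5 and 21, and with the acinar level as a covariate. The heat shock element, searched as GAA, TTC and GAA with any 2 bases between each, stood in 4 of the 16 called members with a promoter, in 0 of 7 not called, and in 0.590% of tested genes. Hspd1 and Hspe1 are transcribed away from one shared stretch, so it is 1 sequence for both genes and is shown on the strand of Hspe1 (chr1:55088039-55088096, plus), with 2 overlapping matches in capitals.
Hspe1: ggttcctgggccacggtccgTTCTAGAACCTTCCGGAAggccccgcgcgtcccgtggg

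Ribosome production and protein turnover genes rose beside the folding machinery. Of 45 ribosome biogenesis and nucleolar genes 32 rose (71.1%, against 10.9% of all genes) and 2 fell (4.44%, against 12.3%), with a median of 0.65. The lists that follow stand beside the same shares of all genes. Nop56, of the particle that methylates ribosomal RNA, went from 36.5, 37.3, 37.6, 32.7 and 32.7 CPM to 57.6, 66.6, 59.6, 63.5 and 60.6 CPM, tight in both groups (log2 0.80 ± 0.09, adjusted p = 4.38e-06). Nolc1, a nucleolar chaperone, rose from 38.8 ± 4.99 to 73.3 ± 9.21 CPM, Gnl3, nucleostemin, from 22.2 ± 2.88 to 43.5 ± 8.08 CPM and Nop16 from 6.85 ± 1.36 to 19.4 ± 5.04 CPM. The 2 that fell were Ubtf, a factor of RNA polymerase I, and Nob1, by 0.46 and 0.38. Ribosomal protein genes moved less, with 13 of 78 higher (16.7%) and 2 lower (2.56%) and a median of 0.16. Their counts are uncertain because of their many pseudogenes. Of 41 translation factors 16 rose (39.0%) and 5 fell (12.2%). Eif4a1, the helicase of initiation, rose from 95.1 ± 14.97 to 184 ± 22.8 CPM, while Eif4ebp1, which blocks initiation, fell by 1.70 and the elongation factors Eef1a1 and Eef2 by 0.43 and 0.33. Of 33 proteasome genes 20 rose (60.6%) and none fell (none lower at an unadjusted p under 0.05 in edgeR or by DESeq2), with a median of 0.37. Psmc5, a base ATPase, showed 70.3, 67.8, 64.2, 74.3 and 68.3 CPM and then 100.1, 111, 106, 102 and 108 CPM. Of 45 splicing factors 11 rose (24.4%) and 3 fell (6.67%), among them Tra2a at 1.33 ± 0.17 and Srsf5 at -0.95 ± 0.19. In the 7 libraries without mice 4, 5 and 21 the numbers that rose were 21 for ribosome biogenesis, 6 for ribosomal proteins, 9 for translation factors and 7 for the proteasome, and 1 translation factor fell. The medians of ribosome biogenesis and proteasome genes were then 0.71 and 0.34. Over all genes that fit called 869 higher and 923 lower of 14622.

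Among enzymes of glucose catabolism more rose than fell. Of 19 glycolysis genes 10 rose (52.6%, against 10.9% of all genes) and 1 fell (5.26%, against 12.3%), with a median of 0.44. Those that rose were Gpi1, before the phosphofructokinase step, the enzymes after it, Aldoa, Tpi1, Gapdh, Pgk1, Pgam1, Eno1 and Pkm, and Pgm1 and Bpgm beside the path. Tpi1, triose phosphate isomerase, was at 98.1, 109.8, 92.8, 96.4 and 109.6 CPM and then 152, 158, 140.4, 132 and 169.9 CPM (log2 0.57 ± 0.10), and Pgk1, phosphoglycerate kinase, went from 18.4 ± 4.98 to 39.9 ± 2.903 CPM. Gapdh and some of the others have pseudogenes, which makes their counts uncertain. The 1 fall was Pfkm, the muscle-type phosphofructokinase subunit, at -0.52 ± 0.11. Of 27 citric acid cycle and anaplerosis genes 8 rose (29.6%) and 2 fell (7.41%). The list median was near 0, at 0.07, and 15 of the 27 had a fold change above 0. Fh1 led, followed by Mdh1, the cytosolic malate dehydrogenase (209.6, 240.5, 190.5, 208 and 201 CPM to 339, 388, 391, 366 and 432 CPM), Idh3a (0.79 ± 0.14) and Dld (0.71 ± 0.11), while Me3 and Idh2, which make NADPH in mitochondria, fell by 1.36 and 0.74. The 7 libraries without mice 4, 5 and 21 gave 5 higher and 2 lower in this list. Of 47 nuclear genes for oxidative phosphorylation 20 rose (42.6%) and none fell (none lower at an unadjusted p under 0.05 in edgeR or by DESeq2), with a median of 0.27, and 10 rose in the 7 libraries. Cycs, cytochrome c, was far above that median, from 16.2, 21.6, 14.2, 14.2 and 12.5 CPM to 41.5, 56.8, 59.9, 46.1 and 61.97 CPM (log2 1.76 ± 0.19), as was Atp5g1, a subunit of the ATP synthase ring (1.35 ± 0.20). None of 8 mitochondrially encoded genes was called by edgeR or DESeq2, and none had an unadjusted p under 0.05.

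Genes at the entry of glucose into beta-cell metabolism moved in both directions. Slc2a2, the glucose transporter, was lower when refed, by 0.70, while G6pc2, the beta-cell glucose-6-phosphatase, rose from 1441, 1647, 1518, 1774 and 1949 CPM to 2136, 3646, 2818, 2562 and 3133 CPM without overlap (log2 0.78 ± 0.18, adjusted p = 0.00333). Of 19 glucose-sensing and ChREBP target genes 3 rose (15.8%, against 10.9% of all genes) and 7 fell (36.8%, against 12.3%). Pklr, the pyruvate kinase that ChREBP induces, was at -1.03, Gpd1 at -0.71 and Khk at -0.44. Acly, which makes cytosolic acetyl-CoA, rose from 1194, 1722, 1238, 1266 and 1032 CPM to 2714, 1635, 2504, 2949 and 2218 CPM, with fasted mouse 2 above refed mouse 18. In the 7 libraries without mice 4, 5 and 21 its adjusted p was 0.0857 in edgeR, and 2 members of the list rose and 3 fell.

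Genes of fatty acid oxidation fell. Of 22 PPAR and fatty acid oxidation genes 8 fell (36.4%, against 12.3% of all genes) and none rose (2 higher at an unadjusted p under 0.05, none by DESeq2). The median was -0.44, and 7 fell in the 7 libraries without mice 4, 5 and 21. Angptl4, a secreted inhibitor of lipoprotein lipase and a classical PPAR target (chr17:33774900-33781575), had 90, 72, 45, 61 and 191 counts in fasted mice 1 to 5. In the refed libraries it had 5 counts in mouse 19 and 0 in the other 4 (adjusted p = 4.39e-06, edgeR). The fold cannot be stated closely with so few counts, and 459 counts fasted stand against 5 refed in libraries of like depth. Cpt1a, the gate of mitochondrial fatty acid oxidation (chr19:3322326-3385735), went from 103, 92.95, 105, 96.6 and 128 CPM to 45.1, 38.7, 27.6, 43.2 and 32.2 CPM, with every refed library far below the lowest fasted one (log2 -1.49 ± 0.17, adjusted p = 4.94e-06). Eci2 and Cpt2, further enzymes of the path, fell from 78.9 ± 15.4 to 33.5 ± 5.59 CPM and from 83.1 ± 6.92 to 56.4 ± 3.87 CPM. Slc25a20, the carnitine carrier, Plin2, a lipid droplet coat, Ech1 and Acadm fell by 0.89, 0.79, 0.46 and 0.40.

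The FoxO and fasting list fell with them, with 12 lower (44.4%, against 12.3% of all genes) and 3 higher (11.1%, against 10.9%) of 27 and a median of -0.59. Ccng2, cyclin G2, was at 26.7, 19.3, 21.4, 24.6 and 22.4 CPM fasted and 6.51, 2.91, 3.98, 6.83 and 3.497 CPM refed (log2 -2.26 ± 0.25, adjusted p = 3.12e-06), and Fbxo32, the ubiquitin ligase atrogin-1, at 26.1, 18.3, 20.9, 13.1 and 24 and then 4.86, 1.45, 4.77, 6.88 and 3.63 CPM. Pik3ip1, an inhibitor of PI3 kinase, fell by 2.29, Pdk2, which blocks pyruvate dehydrogenase, by 1.58, Pnpla2, the triglyceride lipase, by 0.96 and Insr, the insulin receptor, by 0.73. Gadd45a was an exception within the list, rising from 3.13, 3.9, 2.17, 3.12 and 4.29 to 12.6, 17.9, 12.2, 13.4 and 12.9 CPM without overlap, and Ppargc1a and Trib1 rose by 1.23 and 0.61. In insulin signalling 3 of 23 genes rose (13.04%, against 10.9% of all genes) and 5 fell (21.7%, against 12.3%), with a median of 0.20. Pik3r1, a regulatory subunit of PI3 kinase, rose by 0.75 ± 0.11, Rheb, the activator of mTORC1, by 0.51 ± 0.09 and Sgk1, a kinase downstream of PI3 kinase, from 3.004 ± 1.26 to 13.97 ± 3.904 CPM, while Akt2 went from 89.3 ± 17.1 to 53.7 ± 3.57 CPM. Genes that brake the cell cycle fell, with 8 lower (42.1%) and 1 higher (Gadd45a, 5.26%) of 19 CDK inhibitor and p53 target genes. Trp53inp1 went from 24.7, 16.5, 35.1, 33.05 and 32.9 to 6.93, 2.59, 4.77, 7.26 and 7.12 CPM and Cdkn1a, p21, from 37.1, 21.1, 53.4, 35.5 and 38.3 to 10.02, 18.6, 9.35, 6.93 and 9.65 CPM, and Gadd45b fell by 2.59. In the 7 libraries without mice 4, 5 and 21, 5 of these were lower and 1 higher. Of 29 proliferation genes 3 rose (10.3%, against 10.9% of all genes) and 2 fell (6.90%, against 12.3%). Their median was -0.67, and 10 of the 29 had a fold change above 0. The 3 D-type cyclins were those that rose, Ccnd1 from 32.04 ± 6.57 to 78.6 ± 11.1 CPM, Ccnd3 by 0.57 and Ccnd2 by 0.48. Ccnb2 and Mcm7, of later cell cycle phases, fell by 1.88 and 0.67.

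Amino acid response genes fell, with 2 fasted libraries standing highest. Of 25 ATF4 targets 11 fell (44%, against 12.3% of all genes) and none rose (1 higher at an unadjusted p under 0.05 and 1 by DESeq2), with a median of -0.71. Sesn2, a leucine sensor that restrains mTORC1, fell evenly from 107, 86.8, 90.8, 126 and 111 CPM to 36.4, 33.5, 41.6, 44.3 and 43.1 CPM (log2 -1.39 ± 0.16). Mthfd2 and Phgdh, of mitochondrial one-carbon and serine synthesis, were at 45.6, 43.8, 55.7, 73.3 and 88.2 CPM and 28.8, 26.9, 42.8, 47.02 and 54.2 CPM in fasted mice 1 to 5. When refed they were at 29.5, 20.4, 24.5, 26.4 and 26.7 CPM and 13.9, 7.54, 18.3, 14.6 and 15.2 CPM. In both genes fasted mice 4 and 5 were the 2 highest, as they were for Trib3 and for Chac1 (19.6, 6.46, 27.7, 44.6 and 47.7 CPM). These are the fasted libraries low in the co-varying genes. With the mean level of the co-varying genes as a covariate, 11 members were called lower and none higher, with a median of -0.75. Without mice 4, 5 and 21, 2 of the 25 members were called lower, beside 923 of 14622 genes in that fit. The list median was again -0.71. Beyond these fits, the part of the co-varying genes in the result was not tested. The ATF4 element TGATGNAAT was found in the promoters of Pycr1 (chr11:120643823-120643871, minus) and Nupr1 (chr7:126625553-126625601, minus), which fell by 1.29 and 1.51. It stood in 2 of 11 genes that fell, in 0 of 11 not called and in 0.581% of tested genes, and is shown in capitals.
Pycr1: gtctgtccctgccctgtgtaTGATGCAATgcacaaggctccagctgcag
Nupr1: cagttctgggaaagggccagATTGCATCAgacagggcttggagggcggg
Of 21 aminoacyl-tRNA synthetases 9 rose (42.9%, against 10.9% of all genes) and 5 fell (23.8%, against 12.3%). Farsb, Hars, Rars and Wars rose by 0.98, 0.97, 0.80 and 0.66, and Cars, Mars1, Lars and Aars fell by 0.83, 0.61, 0.54 and 0.46. Fars2, the mitochondrial enzyme, was the other fall. In the same 7 libraries none was called lower and 9 were called higher. Amino acid transporters fell in 5 of 17 cases (29.4%, against 12.3% of all genes). The falls were led by Slc43a2 (175, 151, 179, 152 and 169 CPM to 100.3, 67.8, 80.7, 101 and 82.2 CPM) and Slc6a6, the taurine transporter (-1.15 ± 0.19). Slc38a2, a sodium-coupled transporter regulated by amino acid supply, fell by 0.92, and Slc7a6 rose by 0.51. The 7 libraries gave 3 falls and no rise.

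Autophagy and lysosome genes fell in 14 of 43 cases (32.6%, against 12.3% of all genes) and rose in 4 (9.30%, against 10.9%). Map1lc3b and Gabarapl1, which coat the autophagosome, were at 138, 109, 144, 165 and 208 CPM and 123, 121, 148, 140.5 and 192 CPM in the fasted libraries. Refeeding took them to 99.6, 82.6, 78.1, 78.4 and 77.1 CPM and 94.03, 66.6, 53.7, 56.8 and 57.6 CPM, without overlap in either. Atg13 and Atg14, of the initiating complexes, fell by 0.99 and 1.03. The rises included Atp6v1a and Atp6v0d1, subunits of the proton pump, by 0.60 and 0.45. Among the other 7 libraries, without mice 4, 5 and 21, 5 falls were called, beside 923 of 14622 genes in that fit. The list median was -0.20 instead of -0.12.

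Of 28 beta-cell identity genes 8 fell (28.6%, against 12.3% of all genes) and 1, G6pc2, rose (3.57%, against 10.9%). Slc30a8, the zinc transporter of insulin granules (chr15:52295553-52335798), was at 1117, 1027, 1022, 1259 and 1342 CPM fasted and 699, 529, 566, 604 and 592 CPM refed, a clear gap between groups (log2 -0.95 ± 0.11, adjusted p = 3.39e-06). Rfx6 and Myt1, transcription factors of endocrine cells, fell from 160.3, 161, 190.1, 164 and 168 to 59.2, 51.1, 58.2, 85.5 and 60.4 CPM and from 43.1 ± 4.902 to 16.5 ± 3.75 CPM. Nkx2-2, Foxa2 and St18 fell by 0.49, 0.39 and 0.40. With mice 4, 5 and 21 left out, the counts were 5 lower and 1 higher, beside 923 and 869 of 14622 genes in that fit. Granule genes mostly did not pass the test, with 1 higher (2.56%, against 10.9% of all genes) and 4 lower (10.3%, against 12.3%) of 39. Rab37, a granule GTPase, fell from 242, 241, 293, 264 and 273 to 126, 57.7, 64.5, 89.5 and 75.5 CPM and Syt13 from 1241 ± 87.7 to 869 ± 79.4 CPM, while Syt5, a calcium sensor of exocytosis, rose from 21.7 ± 5.55 to 54.9 ± 10.2 CPM. Of 36 ion channel and calcium genes 2 rose (5.56%) and 6 fell (16.7%), beside the same shares of all genes. Those that rose included Atp2b1, a calcium pump (0.48 ± 0.09), and those that fell Kcnh6 (-0.64 ± 0.15), Trpm4 (-0.70 ± 0.17) and Scn3a (-1.20). The 7 libraries gave 1 higher and 3 lower.

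Clock genes were called in 33.3% of cases and sterol genes in 25%, against 23.3% of all genes, and a few changed strongly. Per2 rose from 9.35, 17.1, 22.7, 5.68 and 8.46 CPM to 44.9, 35.5, 40.1, 62.9 and 51.2 CPM, Cry1 and Hlf by 1.36 and 1.50, and Bhlhe40, a clock repressor, from 6.56 ± 2.93 to 19.2 ± 4.5 CPM, while Cry2 and Rora fell by 1.50 and 1.12. Of 21 clock genes 4 rose (19.05%, against 10.9% of all genes) and 3 fell (14.3%, against 12.3%), and the 7 libraries gave 2 of each. The hour of sampling is not given, and the refed mice had 2 hours more after the fast, so feeding and time of day cannot be told apart. Abca1, which exports cholesterol and is induced by oxysterols, fell from 216, 195, 291, 187 and 245 CPM to 57.05, 37.1, 44.04, 79.6 and 51.5 CPM. The groups were far apart. Of 28 cholesterol genes 4 rose (14.3%) and 3 fell (10.7%). Among them Pmvk, Lss, Ebp and Hsd17b7, enzymes of synthesis, rose by 1.27, 1.06, 0.82 and 1.38, and Insig1 and Scap, which control SREBP, fell by 1.10 and 0.48 beside Abca1. Of 22 genes of fatty acid synthesis 1 rose (4.55%, against 10.9% of all genes) and 3 fell (13.6%, against 12.3%). Acly rose, and Lpin1 (-1.37 ± 0.25), Dgat2 (-1.52 ± 0.35) and Mid1ip1 (-0.58 ± 0.13) fell. Mt1 and Mt2, the metallothioneins, fell from 1840, 1494, 2258, 2457 and 3467 CPM to 503, 822, 507, 351 and 564 CPM and from 70.6 ± 26.95 to 16.5 ± 7.09 CPM. Among the other 7 libraries, without mice 4, 5 and 21, their adjusted p in edgeR were 0.112 and 0.175.

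**Figure D4:**
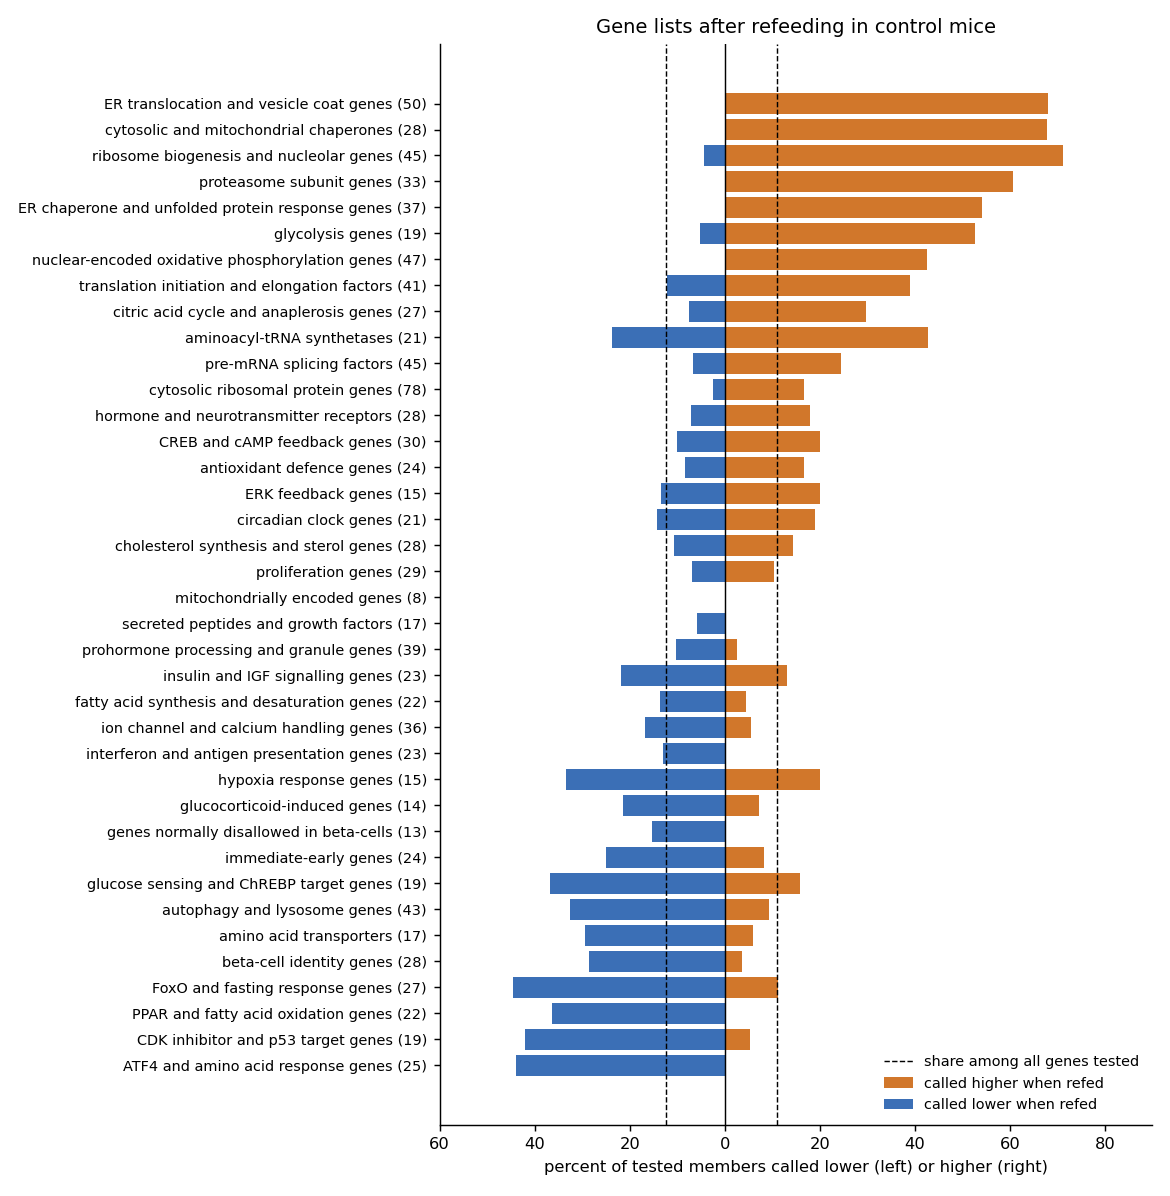
Percent of the tested members of each gene list called higher (orange, right) or lower (blue, left) after refeeding in control mice, with the number tested in brackets. Dashed lines mark the shares over all 14064 genes, 10.9% higher and 12.3% lower. ER, chaperone, ribosome biogenesis and proteasome lists reach far beyond the right line, and ATF4, PPAR, FoxO and CDK inhibitor lists beyond the left.

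Called genes also differed from the rest in ways no list used. Genes called higher were more abundant, with a median of 4.83 log2 CPM against 3.72 for genes called lower and 3.18 for genes not called, and abundance also makes a change easier to call. Their transcripts were shorter, with medians of 1784, 2004 and 2137 bases in the same order. Promoters of genes called higher held the E-box CACGTG in 16.7% of cases, those called lower in 12.8% and those not called in 10.7%. For the cAMP response element TGACGTCA the shares were 5.43%, 2.85% and 3.605%. The AP-1 motif TGANTCA ran the other way, at 5.60%, 8.46% and 5.56%, as did the forkhead motif GTAAACA, at 2.03%, 4.345% and 3.19%, and the sterol element TCACNCCAC stood at 1.62%, 0.974% and 1.37%. These are descriptions over sets that differ in level and base composition, and no test was made of them. Among the 59 genes with a mean of at least 9 log2 CPM, 15 rose and 7 fell, beside 10.9% higher and 12.3% lower among all genes. Beyond Hspa5, G6pc2 and Slc30a8, the named ones, chosen after their values were seen, included Rnase4, a secreted ribonuclease (1060, 491, 995, 988 and 2251 CPM to 707, 339, 339.9, 350.1 and 607 CPM), Il1r1, the interleukin-1 receptor (761 ± 104 to 431 ± 73.9 CPM), and Psap, the precursor of lysosomal saposins (1177 ± 76.04 to 801 ± 143 CPM), which all fell.

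The same contrast was made in the mice treated with DT, 6 fasted against 6 refed, which share no library with the control contrast. The co-varying genes were low in fasted DT mice 6, 7 and 8 and refed DT mouse 16 as well (2.48 to 2.98 log2 CPM), against 3.98 to 5.19 in the other 8. There 1521 genes were called higher (10.8%) and 1905 lower (13.5%). The shared calls were 985 upward, which is 64.1% of those in control mice and 64.8% of those in DT mice, and 1064 downward, which is 61.3% and 55.9%. A further 4 genes were called in opposite directions, and 3164 of the 3272 genes called in control mice (96.7%) had the same sign in DT mice. Tested directly, the response differed between control and DT mice for 1 gene in 14064 (0.00711%) by edgeR, with 1004 at an unadjusted p under 0.05 and 21 called by DESeq2. Refed DT mouse 13 stood apart, with an insulin share of 69.4% against 40.3 to 48.1% in the other refed DT mice, and without it and refed DT mouse 20 the count was 14. That gene was Selenbp1, a selenium-binding methanethiol oxidase. In control mice it fell from 3.08, 3.201, 4.97, 4.404 and 8.04 CPM to 0.9297, 1.73, 1.16, 1.04 and 0.712 CPM, and in DT mice it rose from 2.28 ± 0.86 to 4.88 ± 1.93 CPM (SD, n = 6). The difference was 3.18 ± 0.46 on the log2 scale (adjusted p = 0.0109).

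Of the 12 largest rises in control mice 10 were called higher in DT mice, and of the 12 largest falls 11 were called lower, all 24 with the same sign. They were chosen for their size in control mice, so the size in DT mice is given only beside it, and none had an adjusted p for the difference below 0.582. Fh1 had log2 fold changes of 2.32 ± 0.16 and 2.33 ± 0.15, Klhl24 of -3.03 ± 0.25 and -2.88 ± 0.23, and Spry4 of 3.40 ± 0.77 and 3.45 ± 0.71 in control and DT mice. Kit stood at -3.69 ± 0.76 and -0.83 ± 0.62, and Rap2a at 2.29 ± 0.56 and 0.13 ± 0.49, with an adjusted p for the difference of 0.582 and 0.59. Cdkn1a fell by 1.77 in control mice and had 0.05 ± 0.28 in DT mice (adjusted p of the difference 0.445). The list counts that follow stand beside 10.8% higher and 13.5% lower among all genes in DT mice, and 10.9% and 12.3% in control mice. Cytosolic and mitochondrial chaperones rose in 20 of 28 cases in DT mice and ribosome biogenesis genes in 30 of 45, beside 19 and 32 in control mice. ER translocation and coat genes rose in 19 of 50 and ER chaperones in 16 of 37, beside 34 and 20. ATF4 targets fell in 4 of 25 in DT mice, near the 13.5% of all genes there, beside 11 in control mice. Ribosomal protein genes rose in 35 of 78, beside 13, and cholesterol genes in 12 of 28, beside 4. No member of any of these lists was called for a difference between the responses.

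**Figure D5:**
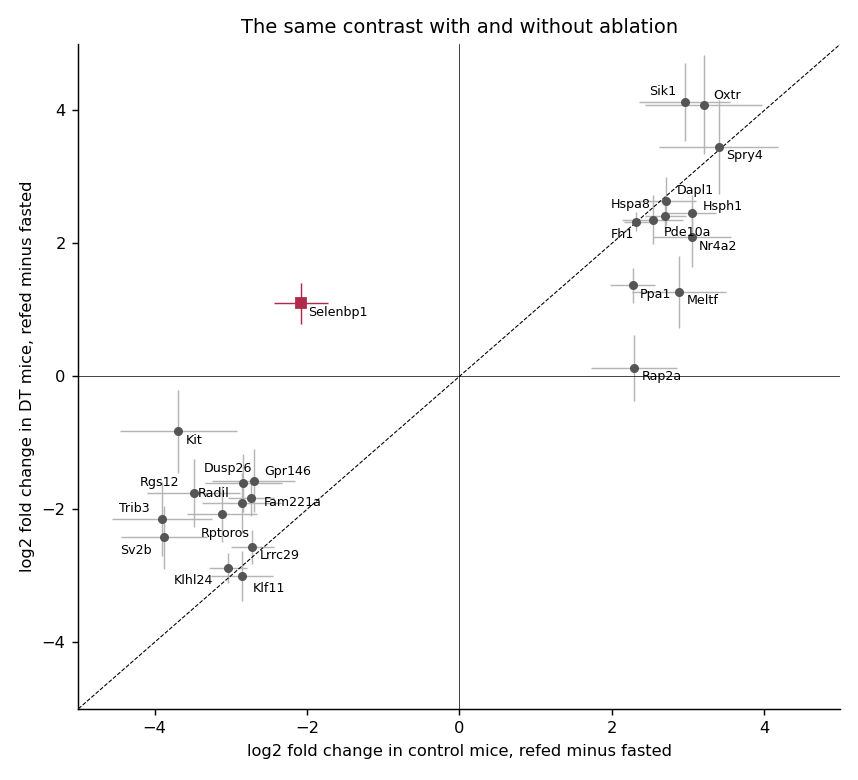
Log2 fold change on refeeding in control mice (horizontal) against DT mice (vertical) for the 24 genes with the largest changes in control mice by the naming rule and for Selenbp1 (square). Bars are standard errors from edgeR and the dashed line marks equal change. All 24 have the same sign in both, and Selenbp1 lies in the opposite quadrant.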

How the data were processed

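RNA was sequenced from sorted beta-cells of 22 mice on a HiSeq4000, single-end, after SMARTer amplification and Nextera XT tagging, per the labels' protocols. The deposited table holds whole-number read counts per gene, made by the authors with STAR 2.7.2b and HTSeq 0.9.1 on GRCm38.p6, per the submitters' processing notes. The notes also name DESeq2 1.28.1. The strand setting and annotation are not given in the sources used here. The table was used as deposited, with 24242 of 52327 genes at 0 in all libraries.

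Groups came from the labels. Genes kept by edgeR's filter on low counts (14064) were fitted with edgeR 4.0.16 in R 4.3.3 by the quasi-likelihood test, with TMM scaling and all 22 libraries in 4 groups, so that all groups share one estimate of spread. P-values were adjusted by Benjamini-Hochberg over all genes tested, at 0.05, and they measure the spread between these mice. Standard errors are the fold change divided by the root of the F statistic. The difference between control and DT mice was the interaction in the same fit. Alternatives used DESeq2 1.42.0, limma 3.58.1 (voom), other scalings and filters, and left-out libraries. The fits were also run on simulated data in which genes varied independently of each other. That run cannot speak to the co-varying genes or the acinar RNA of these libraries.

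Genes named are the 12 called genes of largest rise and the 12 of largest fall that averaged at least 1 log2 CPM and were called in every leave-one-out fit (unnamed gene models left out), the islet hormones, and up to 4 members with the smallest p of each list. Others were chosen after their values were seen. The members, the 45 gene lists and the rule were chosen with earlier results of these data known, and the split by co-varying genes and the acinar comparisons came from the data. Promoters were matched by gene symbol to RefSeq. Some members of the lists are counted but not reported by name here.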

Additional observations from a re-analysis of the deposited data

Results flagged for a closer look

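In 76 groups of 5 libraries examined, 1 library stood far from the other 4 in 6 cases by Dixon's ratio of its gap to the whole range (critical value 0.71), and chance gives about 1 in 20. Oxtr was low in refed mouse 21 (ratio 0.838), and the other refed libraries were close together. Klhl24 was low in fasted mouse 2 (0.773), Klf11 low in fasted mouse 5 (0.757) and Gpr146 low in refed mouse 18 (0.848), and in all 3 the fasted and refed libraries did not overlap. The summed acinar markers were low in refed mouse 12 (0.762). The summed immune markers were high in fasted mouse 1 (0.822), at 261 CPM.

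The refeeding response of Selenbp1 differed between DT and control mice by 3.18 on the log2 scale (edgeR, adjusted p = 0.0109), with a fall in control and a rise in DT mice. It is a low gene, at 0.712 to 8.04 CPM in the control libraries.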

How the results depend on the processing

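Under the other scalings, filters, tools, covariates and sample sets tried, the calls in control mice stayed within 1.5 times of 1537 higher and 1735 lower, except that scaling by total count only gave 1132 lower genes, and that leaving out control mice 4, 5 and 21, chosen after seeing the data, gave 869 higher and 923 lower. The second uses fewer samples, and the cause of the first was not tested. Leaving out 1 control library at a time gave 1262 to 1446 higher and 1295 to 1606 lower. No direction reversed in any setting among the genes named by the rule that were called in the main fit. Genes not called, such as the hormones, and genes chosen after their values were seen were outside this check. The difference between DT and control mice covered 21 genes by DESeq2 and 14 without refed DT mice 13 and 20, against 1, and the cause was not tested; mouse 13 has the high insulin share given above, and the pair was chosen with earlier results known. The insulin share of counts differed by -4.87 to -2.44 percentage points when single libraries were left out. The medians of the ERK, insulin and IGF, clock, fatty acid synthesis, receptor, granule, secreted, disallowed and mitochondrially encoded gene lists changed sign in at least 1 setting. So did those of the marker lists of alpha, delta and gamma, acinar, duct, stellate and immune cells. That of insulin and IGF genes went from 0.20 to -0.02 without mice 4, 5 and 21. No paired analysis was possible because the mice carry different numbers in every group. Depth of 16803188 to 22354107 counts leaves genes below about 1 CPM with few counts, and immune and stellate markers there are loosely measured. No label gives a batch, so none could be fitted.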

Other observations

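Smaller lists are given here by their counts, beside 10.9% higher and 12.3% lower among all genes, and several are near those shares. Counts in the 7 control libraries stand beside 869 higher and 923 lower of 14622 genes. Of 15 hypoxia response genes 3 rose (20%) and 5 fell (33.3%), with 2 and 3 in the 7 control libraries left without mice 4, 5 and 21. P4ha1, P4ha2 and Loxl2, which modify collagen, rose by 0.84, 1.00 and 0.94 on the log2 scale, while Pdk1, Kdm3a, Ndrg1, Ankrd37 and Bnip3 fell by 0.99, 0.89, 0.85, 1.13 and 0.59. Of 24 antioxidant genes 4 rose (16.7%), among them Srxn1, which repairs peroxiredoxins (0.91), and G6pdx, the entry to the pentose phosphate path (0.74), and 2 fell (8.33%), Nqo1 by 1.03 and Gpx4 by 0.63, with 2 and 1 in the 7 libraries. Of 17 secreted peptides and growth factors Gdf15, a stress hormone, was the 1 called (5.88%), at -2.34, while the 7 libraries gave none lower and 1 higher. Of 23 interferon and antigen presentation genes 3 were lower (13.04%), Irf1, Psmb9 and Ifi27, at -1.08, -0.85 and -0.52, and the 7 libraries gave 1. Of 13 genes normally disallowed in beta-cells 2 were lower (15.4%), Lmo4 and Dnmt3a, at -1.09 and -0.51. Of the called genes 399 belong to at least 1 list and 2873 to none.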
